A study of Mus musculus with 59 samples.

Results

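The 34 genes described here mark microglia, the resident macrophages of the brain, and were taken as a list of known microglial genes, written with earlier results of these data in view; no measured value enters the rule except a minimum mean level. All 34 were found in the table of 18088 genes, and all 34 had a mean of at least 10 normalized counts over the 59 libraries, from 16.6 for Gpr84 to 2658 for Csf1r. They comprised 11 homeostatic receptors and surface proteins, 6 complement and lysosomal genes, 5 genes of ITAM and Fc receptor signalling, 3 transcription factors, 7 leukocyte surface and cytoskeletal genes and 2 secreted or inducible genes.

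RNA-seq libraries came from the prefrontal cortex of C57BL/6J mice aged 25 days, of both sexes, labelled either wild type (WT) or heterozygous (HT) for Myt1l, a neuronal transcription factor. From postnatal day 3 to postnatal day 24 the pups were exposed, through the milk of the dam, to vehicle, to lithium, which stabilises mood, or to fluoxetine, an antidepressant that blocks the serotonin transporter. Each combination of genotype, drug and sex had 5 libraries, except WT fluoxetine females with 4. The labels name neither the kind of Myt1l allele nor the dams and litters, so pups that shared a dam cannot be told apart from independent pups, and the p-values below measure the spread between pups taken as independent. Myt1l averaged 8030 ± 938 normalized counts (SD, n = 10) in vehicle libraries labelled HT and 7078 ± 255 (SD, n = 10) in WT vehicle libraries. Under fluoxetine the means were 8568 and 7350, and under lithium 8706 and 7161. The level of Myt1l was thus not lower in the libraries labelled HT (log2 difference 0.17 under vehicle, adjusted p = 0.414 in limma), so the measured Myt1l level does not bear out the label, and every genotype comparison below is one between the labels.

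The libraries held 25088446 to 35858365 recovered reads in genes. Some stood apart from the label prefrontal cortex: 11 fluoxetine libraries (5 labelled HT, all 4 WT females and 2 WT males) and 1 lithium library, WT lithium male 1, had a higher level of olfactory bulb markers than any vehicle library, and 5 libraries were high in markers of striatal neurons (HT fluoxetine female 2, HT fluoxetine male 2, HT vehicle female 3, HT vehicle male 3 and WT fluoxetine female 2). HT vehicle female 1, female 3 and male 3 were highest in endothelial and mural markers. The same libraries were also highest in astrocyte markers, with levels (mean z score of log2 values) of 1.13, 2.13 and 2.34. Female 3 and male 3 were highest in oligodendrocyte markers as well (3.06 and 2.66). The name endothelial-high, used below, is thus a label and not a trait of vascular markers alone. Results that rest on these libraries are given with and without them.

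Microglia depend on the receptor Csf1r and its ligands Csf1 and Il34 for survival, and on TGF-beta signalling for their homeostatic identity. In the healthy brain they survey the tissue with fine processes, guided by purinergic receptors such as P2ry12 and by Cx3cr1, the receptor of a neuronal chemokine. Complement C1q, made largely by microglia in the brain, tags synapses for removal during postnatal development, and lysosomal proteases such as cathepsin S degrade what the cells take up. The transcription factors Spi1 (PU.1), Irf8 and Sall1 maintain the microglial programme, and PU.1 binds purine-rich DNA with a GAGGAA core.

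Promoter sequences are shown for 6 genes that recur in the results, to set receptor genes beside complement and lysosomal genes, with Cd53 and Inpp5d from other roles. Each is the 250 bases before a RefSeq transcript start (GRCm38.p6), read 5′ to 3′ on the strand of the gene, with GAGGAA on that strand in capitals. They are P2ry12 (chr3:59262986-59263235, minus strand), P2ry13 (chr3:59210883-59211132, minus strand), Cd53 (chr3:106790150-106790399, minus strand), Inpp5d (chr1:87620062-87620311, plus strand), Ctss (chr3:95526536-95526785, plus strand) and C1qb (chr4:136886201-136886450, minus strand).
P2ry12: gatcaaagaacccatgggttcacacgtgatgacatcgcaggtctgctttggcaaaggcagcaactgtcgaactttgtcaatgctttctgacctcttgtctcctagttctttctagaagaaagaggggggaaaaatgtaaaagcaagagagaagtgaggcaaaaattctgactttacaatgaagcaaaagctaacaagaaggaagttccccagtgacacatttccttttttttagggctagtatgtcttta
P2ry13: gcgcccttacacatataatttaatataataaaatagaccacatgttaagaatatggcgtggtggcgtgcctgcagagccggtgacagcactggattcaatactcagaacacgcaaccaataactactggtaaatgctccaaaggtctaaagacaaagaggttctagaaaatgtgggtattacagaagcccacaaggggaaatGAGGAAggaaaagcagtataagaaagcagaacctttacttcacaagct
Cd53: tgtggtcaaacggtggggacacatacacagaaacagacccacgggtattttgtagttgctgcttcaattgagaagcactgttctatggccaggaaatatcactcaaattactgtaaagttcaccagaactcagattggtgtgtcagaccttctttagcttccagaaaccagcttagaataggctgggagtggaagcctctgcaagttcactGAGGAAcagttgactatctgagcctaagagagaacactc
Inpp5d: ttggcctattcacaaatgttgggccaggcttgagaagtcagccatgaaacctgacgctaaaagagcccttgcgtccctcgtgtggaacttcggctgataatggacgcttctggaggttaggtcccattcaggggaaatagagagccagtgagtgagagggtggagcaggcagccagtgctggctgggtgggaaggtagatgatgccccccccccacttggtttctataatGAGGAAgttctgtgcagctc
Ctss: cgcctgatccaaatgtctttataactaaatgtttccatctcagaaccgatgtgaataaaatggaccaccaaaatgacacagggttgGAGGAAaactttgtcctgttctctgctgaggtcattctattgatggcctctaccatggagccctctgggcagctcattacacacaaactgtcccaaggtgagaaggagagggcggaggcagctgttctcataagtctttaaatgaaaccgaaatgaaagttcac
C1qb: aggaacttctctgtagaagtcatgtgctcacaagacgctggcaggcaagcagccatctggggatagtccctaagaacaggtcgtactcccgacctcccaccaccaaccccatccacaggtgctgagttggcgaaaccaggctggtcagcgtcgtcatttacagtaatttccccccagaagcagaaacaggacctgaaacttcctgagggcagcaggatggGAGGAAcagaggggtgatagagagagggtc

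The core lay 48 bases before the start in P2ry13, 39 bases in Cd53, 20 bases in Inpp5d, 164 bases in Ctss and 30 bases in C1qb, and was not in the P2ry12 window. For P2ry12 and C1qb the bases after the window were not found in a GENCODE transcript of the gene. The start used is therefore less certain for these genes. In Inpp5d it continued as the longer form GAGGAAGT, which contains the core. RefSeq windows were matched for 25 of the 34 genes (31 windows, since some genes have several starts), and not for Csf1r, Tmem119, Gpr34, Selplg, C1qa, Tyrobp, Spi1, Abi3 and Bin2. Searched on both strands, GAGGAA was in 16 of the 31 windows (51.6%), against 23.3% of all 32851 windows of this length, and GAGGAAGT was in 2 of the 31 (6.45%), in C1qc and Inpp5d, against 2.44%. The windows are not all separate: those of Fcgr3 overlap and hold the same core. By gene, the core was in a window of 15 of the 25 matched genes. By role, the core was in a window of 5 of 5 matched complement and lysosomal genes, 3 of 7 receptors and surface proteins, 3 of 4 ITAM and Fc receptor genes, 4 of 5 leukocyte genes, 0 of 2 transcription factors and 0 of 2 secreted or inducible genes. These are matches of letters and no measure of binding.

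In WT vehicle cortex the highest level per kilobase of exon belonged to the lysosomal protease gene Ctss, at 1016 ± 48.8 normalized counts per kb (SD, n = 10). The C1q chains followed at 857 ± 63.9 for C1qb and 841 ± 40.3 for C1qa, whose ranges over libraries are not separable by their SDs. The receptor with the highest level was P2ry12 at 559 ± 41.5 per kb, ahead of C1qc at 499 ± 24.2 and the growth factor receptor Csf1r at 475 ± 27.3. At the other end stood the inducible receptor gene Gpr84 at 8.63 ± 2.70 and the leukocyte phosphatase gene Ptprc (CD45) at 6.07 ± 0.872 per kb. For scale, the median over 16535 tested genes with a known length was 116.7 per kb, and 12 of the 34 microglial genes lay below it. C1qa, C1qb and C1qc occupy 18675 bases of chromosome 4 (136880129 to 136898803), and P2ry12 and P2ry13 occupy 54980 bases of chromosome 3 (59207892 to 59262871).

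Some gene models overlap others, and whether the counting used strand is not given in the sources used here. P2ry12 exons overlap Med12l on the opposite strand, and P2ry13 and Gpr34 lie within introns of Med12l and Cask. Cx3cr1, Csf1r, Abi3 and Gpr84 share exon sequence with genes on the opposite strand, and Itgam with the gene model Gm49368 on its own strand, so reads at these positions are uncertain. Med12l itself differed by -0.00 on the log2 scale between fluoxetine and vehicle libraries labelled HT (1278 ± 153 against 1272 ± 90.4 normalized counts), so the P2ry12 difference given next was not seen in its neighbour.

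Fluoxetine was compared with vehicle first among the libraries labelled HT (10 against 10), with limma on log2(normalized count + 1). The test ran over 16546 genes with Benjamini-Hochberg adjustment, and a gene is called where the adjusted p is under 0.05. Of the 34 microglial genes 23 fell, beside 14.6% of all tested genes called lower, and 1, Sall1, rose, beside 14.6% called higher. The median log2 difference of the 34 was -0.26, against -0.01 for all tested genes, and 32 of the 34 differences were below 0. Summed over the 34 genes, the level was 19785 ± 1342 normalized counts under fluoxetine and 23269 ± 3359 under vehicle (SD, n = 10 each). In bulk tissue, fewer microglia and less RNA per microglial cell cannot be told apart.

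All 11 homeostatic receptors and surface proteins fell, with a median of -0.35. P2ry12, the ADP receptor that directs process extension, ranged from 929 to 1552 normalized counts (median 1170) under fluoxetine and from 1297 to 2123 (median 1510) under vehicle. Every fluoxetine library was below the mean of the vehicle libraries of its sex, although the ranges overlapped, and the log2 difference was -0.45 ± 0.08 (SE, adjusted p = 6.48e-05, a fall of 27.0%). Counts of libraries below that mean are given, here and below, without the share of all genes that show the same. Csf1r, the receptor that microglia need to survive, ranged from 2019 to 2715 (median 2301) under fluoxetine and from 2580 to 4125 (median 2931) under vehicle, a difference of -0.37 ± 0.07 (adjusted p = 0.000107). Fcrls, an Fc receptor-like protein of murine microglia, differed by -0.43 ± 0.08, the lectin receptor gene Siglech by -0.38 ± 0.07 and Tmem119, a membrane protein that sets microglia apart from other brain macrophages, by -0.37 ± 0.07. The purinergic receptor P2ry13 differed by -0.27, the lysophospholipid receptor Gpr34 by -0.35, Cx3cr1 by -0.29 and Selplg, a selectin ligand, by -0.25. The smallest fall of the 11 was that of Tgfbr1, the TGF-beta receptor, at -0.21 ± 0.06 (adjusted p = 0.0094), and the largest adjusted p that of Mertk, a phagocytic receptor that astrocytes also make, at 0.0468.

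Of the complement and lysosomal genes 3 of 6 fell, C1qb, Ctss and Laptm5, with a median of -0.18 over the 6. Ctss ranged from 928 to 1515 (median 1205) under fluoxetine and from 1268 to 1844 (median 1439) under vehicle, and all 10 fluoxetine libraries were below the vehicle mean of their sex (-0.28 ± 0.07, adjusted p = 0.00174). Laptm5, a lysosomal membrane protein, differed by -0.33 ± 0.09 (adjusted p = 0.00332) and C1qb by -0.21 ± 0.06 (adjusted p = 0.00877). C1qa, which encodes the A chain of the same hexamer, ranged from 787 to 981 (median 895) under fluoxetine and from 725 to 1185 (median 882) under vehicle, with 5 fluoxetine libraries above and 5 below the mean (-0.03 ± 0.07, adjusted p = 0.733). C1qc (-0.15, adjusted p = 0.0679) and the lysosomal glycoprotein gene Cd68 (-0.10, adjusted p = 0.376) did not pass either. The plot of 6 genes by group shows these levels in every library.

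**Figure D1:**
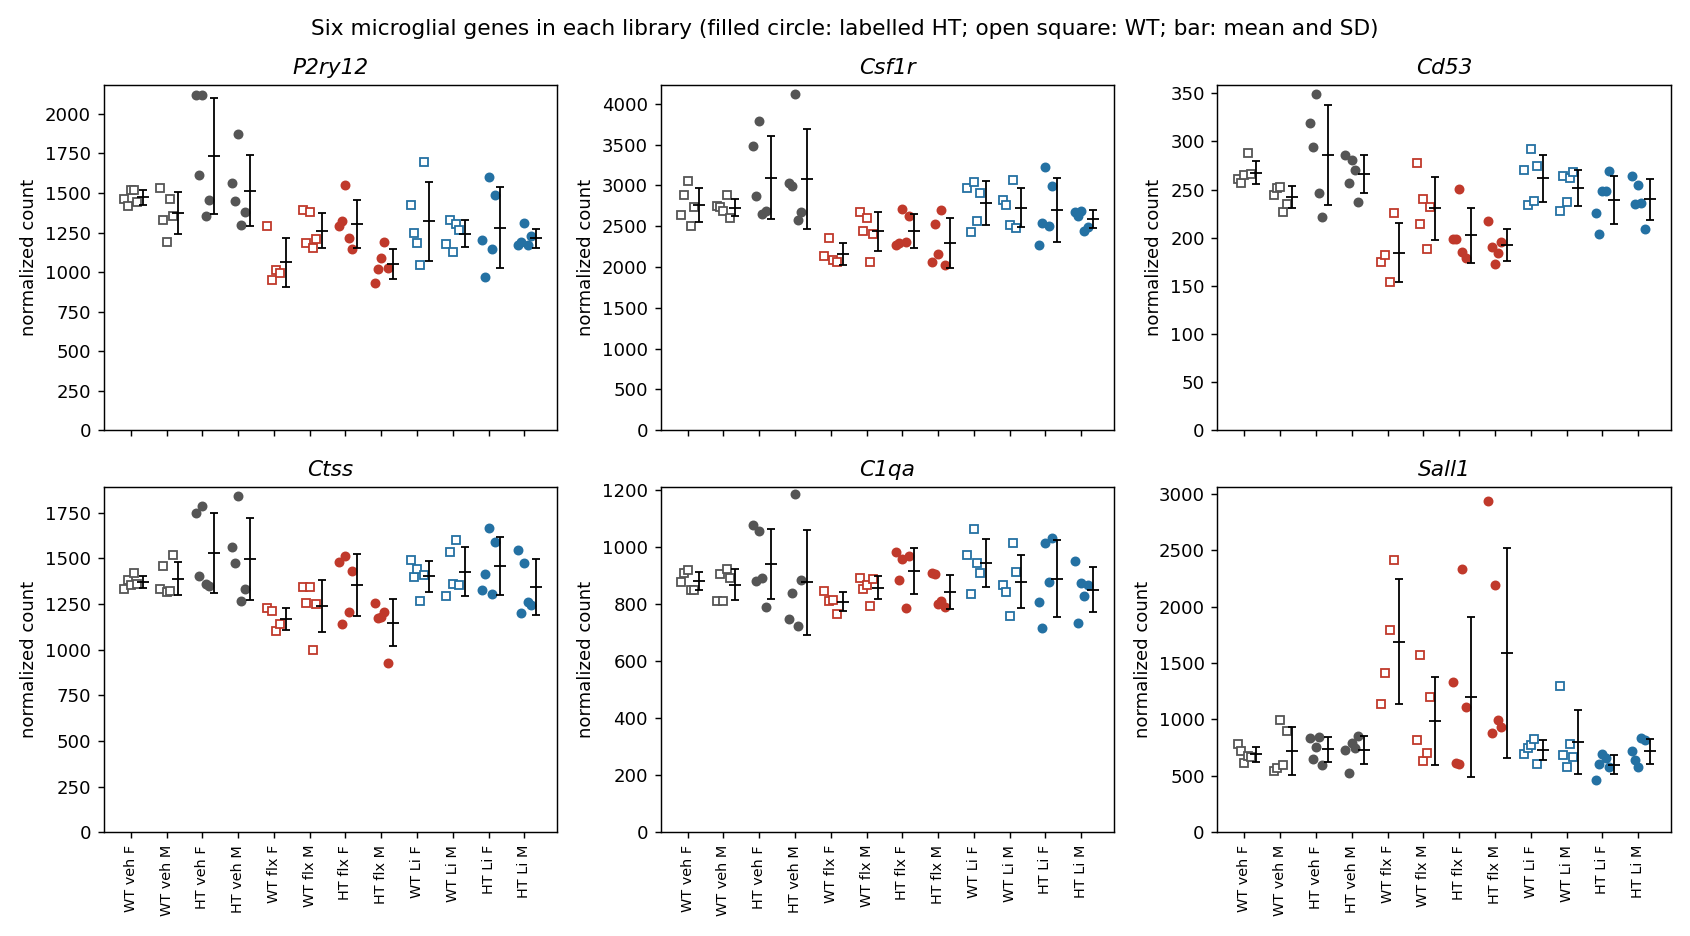
Normalized counts (y axes, from 0) of P2ry12, Csf1r, Cd53, Ctss, C1qa and Sall1 in each of 59 libraries, by genotype label, drug (veh, vehicle; flx, fluoxetine; Li, lithium) and sex; filled circles are labelled HT, open squares WT, and the bars give mean and SD. P2ry12, Csf1r and Cd53 sit lower in fluoxetine libraries, C1qa is near 880 in every group, and a few fluoxetine libraries of Sall1 reach 2331 to 2934.

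The mean log2 level of the 11 receptors minus that of the 6 complement and lysosomal genes gives the gap between these roles within 1 library. It was 0.10 ± 0.061 in HT vehicle libraries (SD, n = 10) and -0.042 ± 0.124 in HT fluoxetine libraries (n = 10). In WT libraries it was 0.092 ± 0.048 under vehicle and 0.017 ± 0.096 under fluoxetine, of which the females were at -0.066 ± 0.072 (n = 4) and the males at 0.084 ± 0.043 (n = 5). Lithium libraries were at 0.010 ± 0.080 in those labelled HT and 0.054 ± 0.093 in WT. Among HT fluoxetine libraries, those above every vehicle library in bulb markers had gaps from -0.236 (male 1) to -0.066 (male 3). The other HT fluoxetine libraries lay from -0.044 (male 2) to 0.126 (female 2). Of the further bulb-high libraries, WT fluoxetine males 2 and 5 were at 0.057 and 0.115 and WT lithium male 1 at -0.118. These values are a description. The gap itself and the part of the bulb markers in it were not tested.

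Among the genes of ITAM and Fc receptor signalling, in which adaptor proteins with tyrosine motifs relay signals to kinases, 4 of 5 fell. Inpp5d, the inositol phosphatase that restrains this signalling, ranged from 305 to 484 (median 406) under fluoxetine and from 379 to 580 (median 467) under vehicle (-0.29 ± 0.06, adjusted p = 0.000919). The adaptor gene Tyrobp differed by -0.30 (adjusted p = 0.00293), its partner receptor Trem2, which binds lipids, by -0.26 (adjusted p = 0.00688) and the IgG receptor gene Fcgr3 by -0.19 (adjusted p = 0.0269). The adaptor gene Fcer1g, at -0.22, did not pass (adjusted p = 0.0942). Leukocyte surface and cytoskeletal genes fell in 5 of 7. Cd53, a tetraspanin of leukocytes, had the smallest p of all 34 genes: it ranged from 173 to 251 (median 193) under fluoxetine and from 222 to 349 (median 275) under vehicle, with 10 of 10 libraries below the vehicle mean of their sex (-0.48 ± 0.07, adjusted p = 4.18e-06). The integrin gene Itgam (CD11b) differed by -0.39, the membrane-bending protein gene Bin2 by -0.35, the Toll-like receptor partner Ly86 by -0.27 and Ptprc by -0.26. Aif1 (IBA1), at -0.28, and Abi3, at -0.23, did not pass (adjusted p = 0.0764 and 0.0999).

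None of the 3 transcription factors fell. Spi1 differed by -0.08 (adjusted p = 0.657) and Irf8 by -0.11 (adjusted p = 0.401). Sall1 rose by 0.74 ± 0.20 (adjusted p = 0.00467): its level ranged from 608 to 2934 (median 1052) under fluoxetine and from 524 to 851 (median 751) under vehicle. Of the 10 fluoxetine libraries 8 were above the highest vehicle library, led by male 1 at 2934, female 4 at 2331 and male 3 at 2191, while females 2 and 3, at 618 and 608, were within the vehicle range. Sall1 is also made outside microglia, and it followed the 8 tested olfactory bulb markers (Eomes, Tbx21, Omp and others) with a Pearson r of 0.87 across the 59 libraries after group means were removed, where the other 33 genes had an r between -0.575 (Mertk) and 0.161 (Ly86); libraries share dissection and depth, and these are descriptions. The secreted protein gene Olfml3 (-0.12, adjusted p = 0.37) and Gpr84 (0.03, adjusted p = 0.915) did not pass.

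Markers of other cells and regions moved in the same comparison. All 8 olfactory bulb markers rose under fluoxetine among libraries labelled HT, from 1.90 for Th to 3.44 for S100a5 on the log2 scale, and the summed level of the list ranged from 215 to 25711 normalized counts under fluoxetine and from 247 to 2450 under vehicle. Of 10 endothelial and mural markers 4 fell, among them Slco1a4 by 0.38 and Rgs5 by 0.42, and their summed level ranged from 10609 to 13126 under fluoxetine and from 12352 to 19094 under vehicle. The 3 vehicle libraries highest in these markers, HT vehicle female 1, female 3 and male 3, were also the 3 highest in the microglial receptors. Of 10 astrocyte markers 3 fell, led by Aldoc (-0.28), and of 10 oligodendrocyte markers 0 were called, with all 10 below 0 (median -0.30) and 2 at an unadjusted p under 0.05.

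The fluoxetine result was computed again with these levels as a covariate or without these libraries; the alternatives that leave out bulb-high and endothelial-high libraries were chosen after seeing the data. With the bulb marker level as a covariate 8 genes were called, all lower: Cd53 (-0.42), P2ry12 (-0.32), Csf1r (-0.29), Fcrls (-0.36), Ly86 (-0.30), Tmem119 (-0.27), Siglech (-0.26) and Ctss (-0.24). Without the 5 HT fluoxetine libraries whose bulb marker level exceeded that of every vehicle library 7 were called, the same set less Siglech. Without the 3 vehicle libraries high in endothelial markers 10 were called, 9 lower and Sall1 higher, with P2ry12 at -0.31 and Cd53 at -0.39. Under none of these 3 did Cd53, P2ry12, Csf1r, Tmem119 or Fcrls lose its call. A fit with a term for 14 libraries (every HT library with fluoxetine and the 4 WT females with it) called 0 of the 34 genes. Among fluoxetine libraries only the WT ones differ in that term, 4 females against 5 males. The values it gives for HT therefore lean on this contrast of WT sexes. The drug and the division of the libraries cannot be told apart among those labelled HT, and no conclusion is drawn from the 0 calls. The part of these markers in the remaining differences was not tested. Counts under alternative fits, here and below, stand without the share of all genes called in the same fit. They therefore do not show whether a change in calls is particular to the microglial genes.

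**Figure D2:**
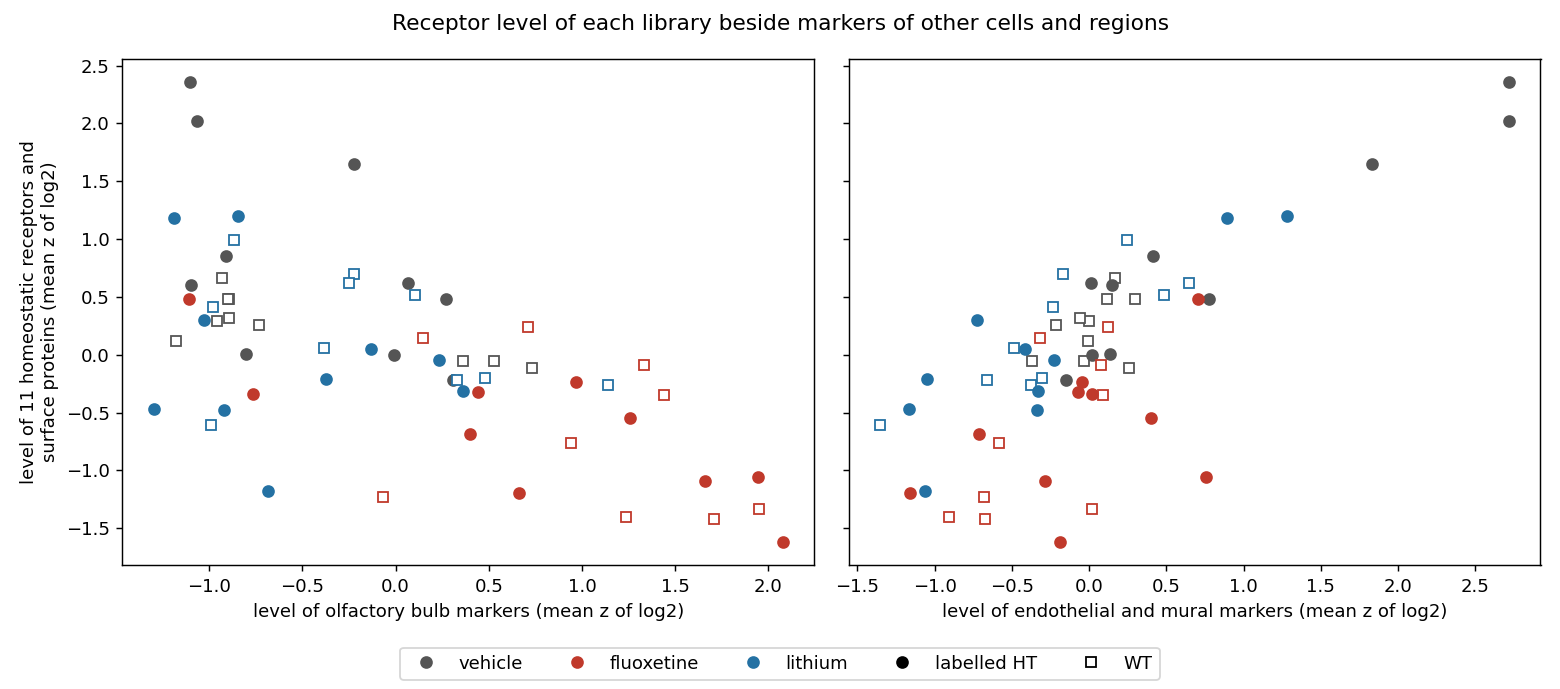
Level of the 11 homeostatic receptors and surface proteins in each of 59 libraries (y axis, mean z score of log2 normalized counts) against the level of 8 olfactory bulb markers (left) and of 10 endothelial and mural markers (right), on the same scale. Fluoxetine libraries (red) lie low and reach furthest to the right in bulb markers, while 3 HT vehicle libraries (grey, filled) stand at the upper right in endothelial markers.

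In WT mice (9 fluoxetine against 10 vehicle libraries) 13 of the 34 genes fell under fluoxetine, beside 6.08% of all tested genes called lower, and Sall1 rose, beside 8.81% called higher. The median of the 34 was -0.18 and 30 were below 0. Receptors fell in 6 of 11 (P2ry12, Gpr34, Csf1r, Tmem119, Siglech and Fcrls), ITAM and Fc receptor genes in 4 of 5, complement and lysosomal genes in 1 of 6 (Ctss) and leukocyte genes in 2 of 7 (Itgam and Cd53). These libraries share no controls with those labelled HT.

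The smallest p among the genes that fell in WT was that of Inpp5d, which ranged from 324 to 469 (median 389) under fluoxetine and from 403 to 531 (median 491) under vehicle (-0.30 ± 0.07, adjusted p = 0.00309). Cd53 differed by -0.31 ± 0.07 (adjusted p = 0.0046), with 1 of 9 fluoxetine libraries, male 1 at 278, above the vehicle mean of its sex. Csf1r ranged from 2063 to 2669 (median 2358) under fluoxetine and from 2506 to 3049 (median 2730) under vehicle, with 9 of 9 libraries below the mean of their sex (-0.26 ± 0.07, adjusted p = 0.0124). P2ry12 differed by -0.30 ± 0.08 (adjusted p = 0.0134) and Ctss by -0.20 ± 0.07 (adjusted p = 0.0396). C1qa (-0.07, adjusted p = 0.513) and Cd68 (-0.00, adjusted p = 0.992) did not pass. Sall1 rose by 0.82 ± 0.21 (adjusted p = 0.00689), from a range of 546 to 995 under vehicle to one of 633 to 2415 under fluoxetine.

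No gene of the 34 was called in WT with the bulb marker level as a covariate, where the median was -0.12 and Sall1 stood at -0.01. All 4 WT fluoxetine females and 2 of 5 WT fluoxetine males exceeded every vehicle library in that level, and all 8 bulb markers rose in WT too, from 2.66 for Th to 5.02 for S100a5. The part of this in the WT result was not tested. In WT the endothelial markers gave 1 call, Slco1a4 (-0.36), and 15 of the 34 genes were called when the 3 HT vehicle libraries were left out of the fit. The count fell to 7 without WT fluoxetine male 4, the lowest male for Itgam (421) and Ctss (997), to 8 without WT fluoxetine female 3 or female 4, and to 9 without WT fluoxetine male 2, WT vehicle female 2 or WT vehicle female 5.

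Whether fluoxetine differed between the genotype labels was tested by the interaction. It called 0 of the 34 genes in limma, beside 0.0302% of all tested genes, and 1, Bin2 (-0.35 ± 0.17), had an unadjusted p under 0.05; edgeR and DESeq2 also called 0. For P2ry12 the difference of the 2 differences was -0.15 ± 0.12 and for Cd53 -0.17 ± 0.10. The larger number of calls among libraries labelled HT is therefore no shown difference between the labels.

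Within 1 sex the same fit gave 6 genes lower among HT females (3.63% of all genes called lower), 14 lower and 1 higher among HT males (6.76% and 6.67%) and 11 lower and 1 higher among WT females (8.79% and 11% of all genes). Among WT males 0 were called, beside 0% of all genes, with 2 at an unadjusted p under 0.05, Trem2 (-0.32) and Inpp5d (-0.20). P2ry12, Csf1r, Tmem119, Siglech and Cd53 were called in each of the 3 groups with calls; for Cd53 the log2 differences were -0.49 in HT females, -0.47 in HT males and -0.55 in WT females. Single libraries moved these counts: the 6 of HT females became 1 without HT fluoxetine female 4 or HT vehicle female 3, 2 without HT vehicle female 1, 3 without HT fluoxetine female 1 and 10 without HT fluoxetine female 3. The 15 of HT males became 7 without HT fluoxetine male 1 or HT vehicle male 3, and the 12 of WT females became 7 without WT fluoxetine female 4. Fitted on the compared groups alone, both HT sexes gave 0 calls. The bulb marker level moved with these calls: with it as a covariate 2 genes were called in HT females, 0 in HT males and 0 in WT females, and without the bulb-high fluoxetine libraries 0 in HT females and 1 in HT males. Without the 3 endothelial-high vehicle libraries the counts were 0 in HT females and 9 in HT males, and without the 5 striatal-high libraries 1 and 9. The part of these markers was not tested. In WT males Cd53 ranged from 188 to 278 under fluoxetine and from 227 to 253 under vehicle. The difference between the WT sexes called 0 of the 34 in limma, beside 0.0846% of all genes, with 7 at an unadjusted p under 0.05, led by Cd53 at -0.47 ± 0.15 (adjusted p = 0.224). Over all drugs and genotypes, females and males differed in 0 of the 34 in limma, beside 0.145% of all genes, with 2 at an unadjusted p under 0.05, Ptprc (0.13 higher in females) and Abi3 (0.15 higher in females). edgeR and DESeq2 also called 0 of the 34 among WT males, between the WT sexes and between females and males.

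Lithium was compared with vehicle among the libraries labelled HT, with the same 10 vehicle libraries as controls as for fluoxetine. Of the 34 genes 10 fell, beside 1.57% of all tested genes called lower, and none rose; the median was -0.16 and 31 were below 0. The genes that fell were 4 of 11 receptors (P2ry12, Gpr34, Cx3cr1 and Fcrls), 4 of 7 leukocyte genes (Itgam, Abi3, Bin2 and Ly86), Trem2 and Olfml3. Complement and lysosomal genes were called in 0 of 6, with differences between -0.19 (Laptm5, the 1 gene of the 6 at an unadjusted p under 0.05) and -0.04 (Cd68).

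Ly86 had the smallest p: it ranged from 165 to 237 (median 221) under lithium and from 240 to 336 (median 259) under vehicle (-0.34 ± 0.07, adjusted p = 0.00277). Itgam, the complement receptor 3 subunit, ranged from 460 to 674 (median 562) under lithium and from 586 to 985 (median 731) under vehicle (-0.42 ± 0.09, adjusted p = 0.00472). P2ry12 ranged from 971 to 1598 (median 1194) under lithium (-0.37 ± 0.08, adjusted p = 0.00707). Bin2 had the largest difference at -0.53 ± 0.12 (adjusted p = 0.00738), followed by Abi3, a cytoskeletal adaptor, at -0.48 ± 0.11 (adjusted p = 0.00923). All 10 lithium libraries were below the vehicle mean of their sex for each of these 5 genes. The share of all genes that show the same is not given here. HT vehicle male 3, far above its group for Ly86, Bin2 and Abi3, enters the male means. Tmem119 (-0.05, adjusted p = 0.793) and Inpp5d (0.06, adjusted p = 0.708) did not pass under lithium; the 2 drugs were not tested against each other.

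The part of endothelial and mural markers in the lithium result was not tested, but the calls depended on 3 control libraries. These were also the highest in astrocyte markers, whose part was not tested either. Without HT vehicle female 1, female 3 and male 3 the comparison called 0 of the 34 genes and the median was -0.05. With the endothelial and mural marker level as a covariate the comparison also called 0, with a median of 0.02. In the full comparison 4 of 10 endothelial and mural markers fell, led by Tek (-0.41) and Kdr (-0.44), as did 2 of 10 astrocyte markers, Aqp4 (-0.38) and Gja1 (-0.23). All 10 oligodendrocyte markers were below 0 (median -0.59), with 0 called and 10 at an unadjusted p under 0.05. Summed endothelial and mural markers ranged from 10379 to 15639 normalized counts under lithium and from 12352 to 19094 under vehicle. Leaving out the 5 libraries high in striatal neuron markers, 2 of which are among those 3, left 1 call, Ly86 (-0.28, adjusted p = 0.0317). Among single libraries, the count fell to 5 without HT lithium female 2, HT lithium male 2, HT vehicle female 1, HT vehicle female 3 or HT vehicle male 3, and to 6 without HT lithium female 1 or male 1. Fitted on the HT lithium and HT vehicle libraries alone, the comparison gave 3 calls.

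In WT mice lithium called 0 of the 34 genes in limma, beside 1.61% of all tested genes, with 2 at an unadjusted p under 0.05, Spi1 (0.37 ± 0.13, adjusted p = 0.141) and Mertk (0.18 ± 0.09, adjusted p = 0.322). P2ry12 came next, at -0.16 ± 0.08 (adjusted p = 0.365). The median was 0.02, with 15 genes below 0 and 19 above. For the difference of lithium between the genotype labels, 33 of 34 values were below 0 and 0 were called, beside 0% of all genes; 10 had an unadjusted p under 0.05, beside 5.01% of all genes, led by Abi3 (-0.65 ± 0.15, adjusted p = 0.86) and Bin2 (-0.56 ± 0.17, adjusted p = 0.89). edgeR and DESeq2 called 0 in both. The difference between the labels uses the same HT vehicle libraries, including the endothelial-high female 1, female 3 and male 3. HT vehicle male 3 was far above its group for Abi3 (201.9, others 88.9 to 108.7) and Bin2 (244.8, others 162.3 to 185.9). Values of this difference without those libraries are not given here.

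**Figure D3:**
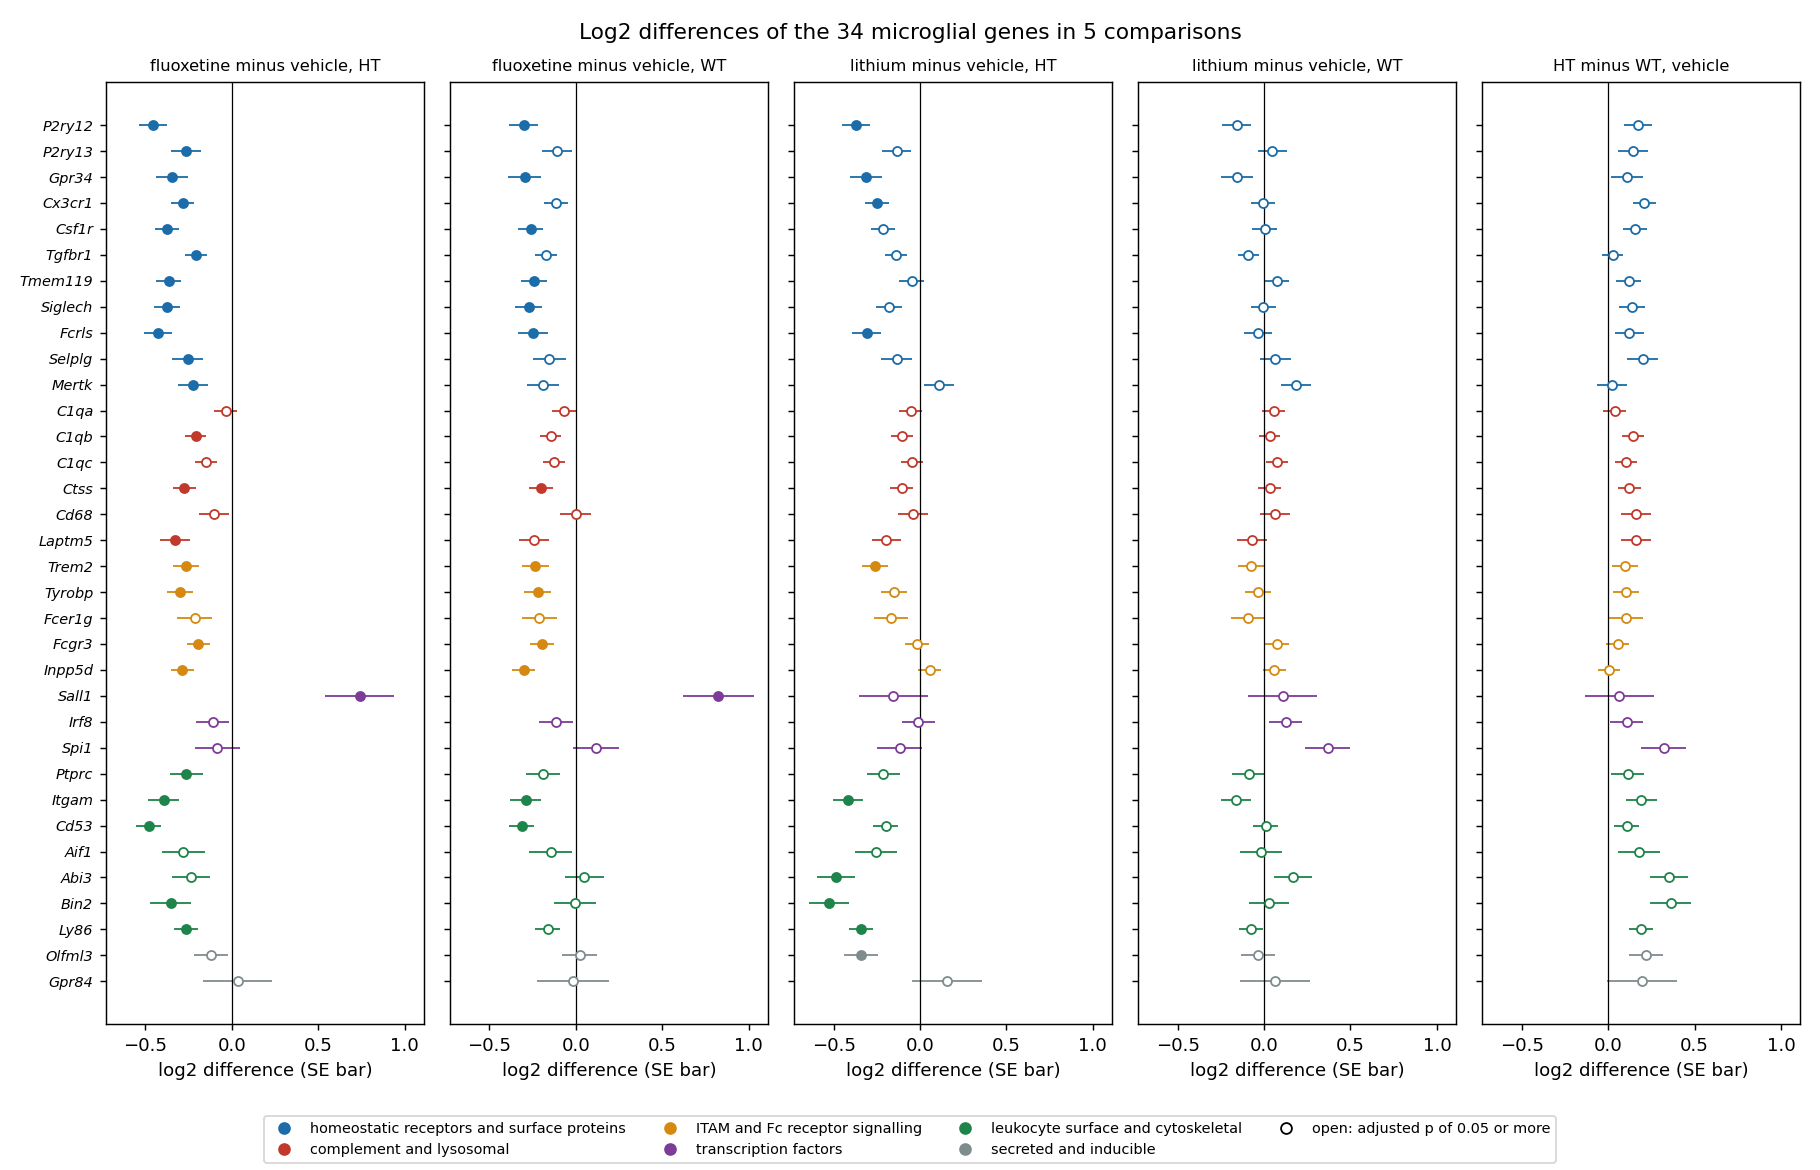
Log2 differences (x axes, with SE bars) of the 34 genes in 5 comparisons, coloured by role; filled points had an adjusted p under 0.05. All 11 receptors (blue) are filled for fluoxetine in libraries labelled HT and 6 in WT, Sall1 stands alone on the right in both, and no point is filled for lithium in WT or for the genotype labels under vehicle.

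Under vehicle, libraries labelled HT and WT were compared to ask whether the Myt1l label alone went with a microglial difference. The test called 0 of the 34 genes in limma, and 0% of all genes. All 34 differences were above 0, with a median of 0.13, and 11 had an unadjusted p under 0.05, beside 9.78% of all tested genes. The 3 smallest p belonged to Abi3 (0.35 ± 0.11, adjusted p = 0.349), Bin2 (0.36 ± 0.12, adjusted p = 0.373) and Cx3cr1 (0.21 ± 0.07, adjusted p = 0.376). Cx3cr1 ranged from 1339 to 2066 (median 1481) in HT and from 1277 to 1506 (median 1340) in WT vehicle libraries. Its 3 highest HT values, 2066, 2019 and 1807, were those of female 3, male 3 and female 1, the libraries highest in endothelial markers; of the other 7, from 1339 to 1535, all but female 2 at 1535 lay within the WT range.

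Under fluoxetine the labels differed in 0 of the 34 genes (0.0423% of all genes), with 0 at an unadjusted p under 0.05 and C1qb first at 0.08 ± 0.06. Under lithium they differed in 0 of the 34 as well (0.00604% of all genes), with 1 at an unadjusted p under 0.05, Abi3 at -0.30 ± 0.11 (adjusted p = 0.957), and 29 values below 0. edgeR and DESeq2 called 0 of the 34 in all 3 genotype comparisons.

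The genes varied together from library to library. HT vehicle female 1, female 3 and male 3 had the highest mean level of these genes and enter every r below. Values of r without them are not given. After group means were removed, 538 of the 561 pairs had a Pearson r above 0 across the 59 libraries, with a median of 0.44; libraries share dissection, depth and scaling, so this is a description. Csf1r and Laptm5 formed the closest pair (r = 0.89), followed by C1qa and C1qb (0.85) and Cx3cr1 and Csf1r (0.85). Pairs of complement and lysosomal genes had a median of 0.68, pairs of receptors 0.58 and pairs across these roles 0.56. The 3 C1q genes, which differ in their fluoxetine calls, had correlations of 0.81 to 0.85 with each other. Sall1 was the exception, with a median of -0.05 and the lowest pair, with Inpp5d (-0.50), and Tgfbr1 (0.13) and Gpr84 (0.17) were the next lowest.

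**Figure D4:**
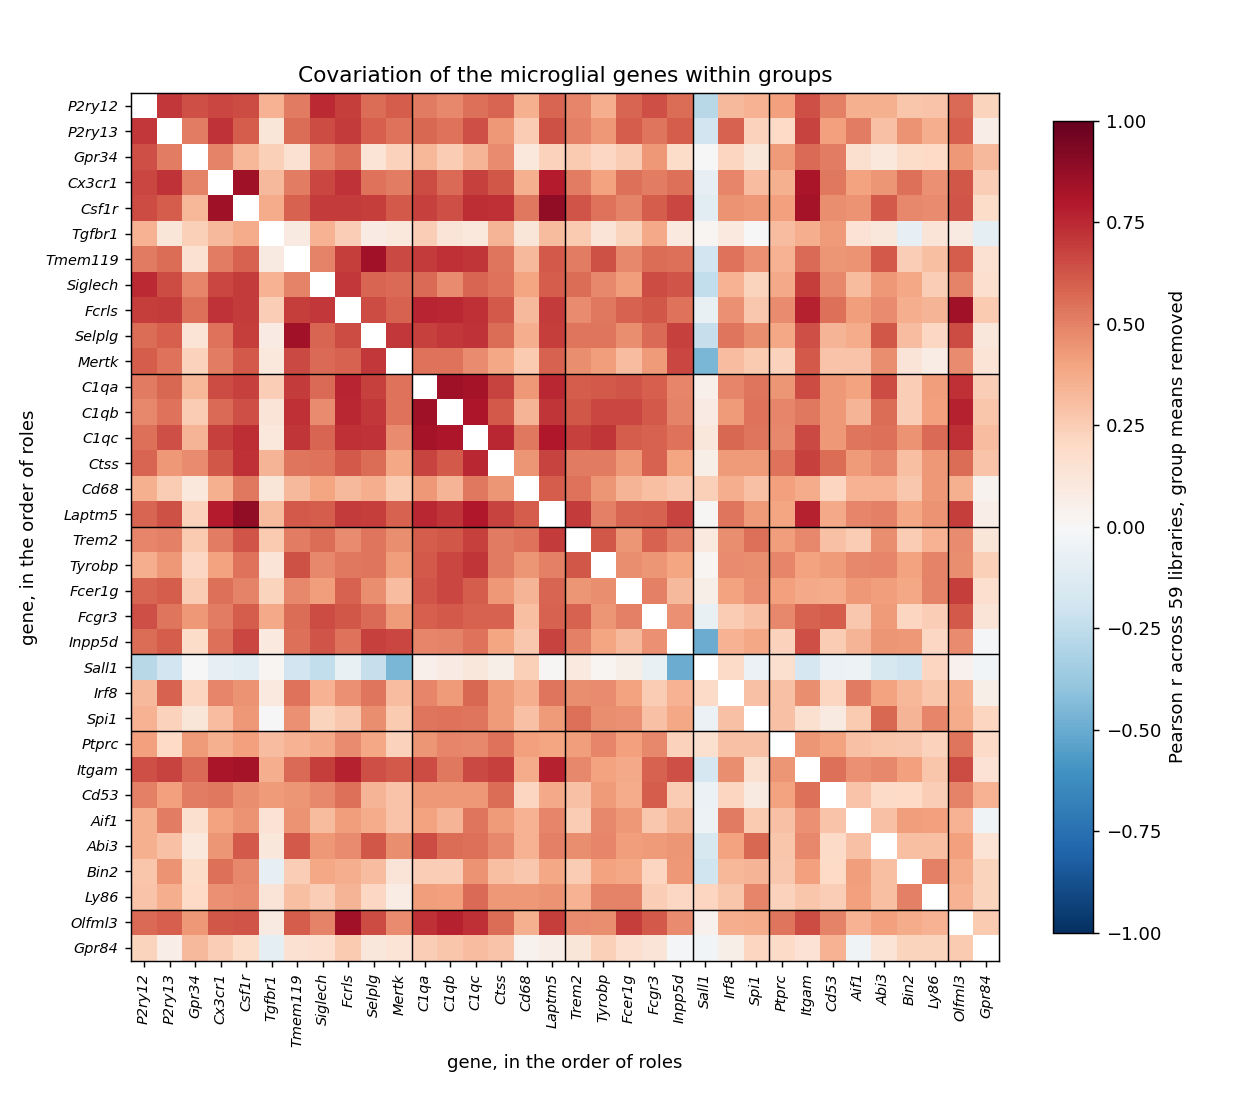
Pearson r between the 34 genes across 59 libraries after group means were removed, in the order of roles (black lines separate roles; red positive, blue negative). The block of receptors, complement and lysosomal genes is red, with paler rows for Tgfbr1, Gpr34 and Cd68, and Sall1 forms a pale to blue row.

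Outside the 34, the genes most like their mean (highest r of the group-centred log2 value, over 59 libraries) were Vsir (0.86), Aldh1l1 (0.86), Itgb5 (0.85), Pbxip1 (0.85) and Fgfr3 (0.84), then Gpr37l1, S1pr1, Slco2b1, Oplah and Nckap1l (0.83 to 0.80). Vsir and Itgb5 stood on the list of other homeostatic microglial genes and Nckap1l on that of downstream signalling genes. Aldh1l1 and Fgfr3 stood on the list of astrocyte markers. HT vehicle female 1, female 3 and male 3 were the highest libraries in the 34 genes (levels 1.57, 1.97 and 2.30). They were also the highest in astrocyte markers (1.13, 2.13 and 2.34). These libraries enter every r, and r without them is not given. Fgfr3 also fell under fluoxetine among libraries labelled HT (-0.25, adjusted p = 0.0165), as did Gpr37l1 (-0.46, adjusted p = 4.9e-05).

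Further genes of the same pathways were taken from lists; their counts stand beside 14.6% of all tested genes called lower and 14.6% called higher under fluoxetine in libraries labelled HT, 6.08% and 8.81% in WT, and 1.57% called lower under lithium in libraries labelled HT. Of 27 other homeostatic microglial genes 14 fell and 1 rose under fluoxetine among libraries labelled HT, and 5 fell and 1 rose in WT; the RNA sensor gene Tlr7 differed by -0.50 ± 0.11 and -0.44 ± 0.11. Under lithium 2 of the 27 fell in libraries labelled HT, Tgfbr2 (-0.25) and the fructose transporter gene Slc2a5 (-0.40). Of 20 downstream signalling genes 5 fell under fluoxetine among libraries labelled HT, led by Nckap1l (-0.33), and in WT 2 fell and 1, Lyn (0.47), rose. Of 17 lysosomal proteases and partners that other brain cells share, 3 fell (Ctsd, -0.20, Ctsb, -0.22, and Npc2, -0.21) and 1, Ctsb, fell in WT, shares near those of all genes. The ligands of Csf1r did not pass over both sexes: Csf1 differed by -0.04 (adjusted p = 0.661) and Il34 by -0.19 (adjusted p = 0.0604) among libraries labelled HT, and Il34 by -0.21 (adjusted p = 0.0722) in WT; within WT females alone Il34 passed (-0.34, adjusted p = 0.0332). Of the 14 ligands and checkpoints tested 2 rose, Tgfb3 (0.33) and C4b (0.62), and 2 fell, Nrros (-0.34) and Sirpa (-0.17), again near the shares of all genes.

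Markers of other immune cells were examined as well, and were not tested against the microglial genes. Of 12 border macrophage markers 9 were tested and 0 were called in limma for fluoxetine or lithium, with 3 at an unadjusted p under 0.05 for lithium in WT and 0 in the other 3 comparisons; their summed level ranged from 847 to 1745 normalized counts in HT fluoxetine, 1107 to 1555 in HT vehicle, 951 to 1445 in WT fluoxetine and 988 to 1505 in WT vehicle libraries. Mrc1, the mannose receptor that defines these cells, differed by 0.09 (adjusted p = 0.604). Of 14 blood leukocyte markers 3 were in the table and 1, Ccr2, was tested, at 16.2 ± 6.0 normalized counts in HT fluoxetine and 16.4 ± 7.4 in HT vehicle libraries.

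**Figure D5:**
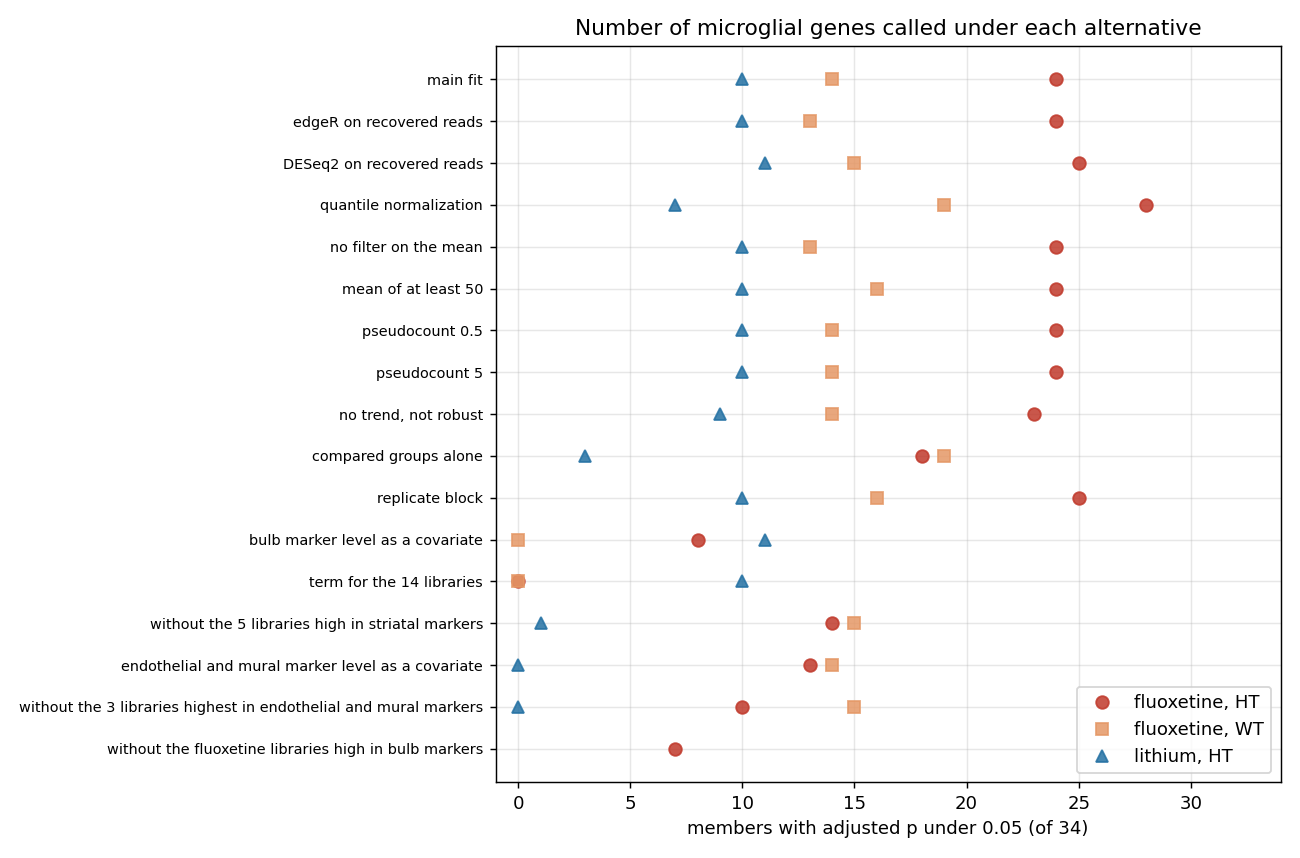
Number of the 34 genes with an adjusted p under 0.05 (x axis) under the main fit and each alternative (y axis), for fluoxetine among libraries labelled HT (circles), fluoxetine in WT (squares) and lithium among libraries labelled HT (triangles). Changes of count tool, filter and pseudocount gave 24 to 25, 13 to 16 and 10 to 11 calls; the bulb covariate left 8, 0 and 11, and the fit without the 3 endothelial-high libraries left 10, 15 and 0.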

How the data were processed

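Messenger RNA from 59 prefrontal cortex samples in 12 groups was sequenced from stranded libraries, per the labels' protocols. The authors deposited 1 table of DESeq-normalized counts, a signal per gene and library; the submitters' processing notes list Salmon 0.11.2, DESeq2 1.19.11, R 3.6.0 and GRCm38, without roles. Dividing each library's values by its smallest step gave whole numbers for 100% of values (tolerance 0.01), so reads could be recovered (25088446 to 35858365 per library, size factors 0.850 to 1.20).

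Ensembl IDs were matched to symbols for 18077 of 18088 genes. The 16546 genes that averaged 10 or more were tested on log2(value + 1) with limma 3.58.1 in R 4.3.3 (trended, robust), fitting 12 group means to all 59 libraries, two-sided, with Benjamini-Hochberg adjustment over all tested genes and a threshold of 0.05. Fold changes are on that log2 scale, which understates changes of low genes. edgeR 4.0.16 (quasi-likelihood) and DESeq2 1.42.0 on the recovered reads were alternatives, and edgeR called 24 and 13 of the 34 genes for fluoxetine in libraries labelled HT and WT. The test was tried on simulated independent counts with the same dispersion for every gene. They held no differences of region or cell content between libraries, so the trial does not cover the marker differences described above. A library was counted as below the controls where it lay under the mean log2 level of the controls of its sex. No library pair within a group agreed within sampling noise. Gene models came from GENCODE vM21 (GRCm38).

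The 34 genes, the marker and pathway lists and the alternatives were chosen with earlier results of these data known. Named genes are the 34, those with the smallest p of each role in full, up to 3 genes per other list with the smallest p, and the 10 genes most like the mean of the 34; values of further genes (such as Med12l, Fgfr3 and Gpr37l1) stand beside a result they touch. 1 gene that this rule would name is not reported here.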

Additional observations from a re-analysis of the deposited data

Results flagged for a closer look

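Within each group, the highest or lowest library was set against the rest for each of the 34 genes. Of 408 gene and group pairs 21 had a library farther from its neighbours than Dixon's limit, in 17 genes, where chance at 1 in 20 would give 20.4. The number is thus near the chance level, but 7 of the 21 fell on 1 library, HT vehicle male 3, which was the highest of its group for Cx3cr1 (2019 normalized counts, others 1419 to 1483), Csf1r (4125), Siglech (546.5), Selplg (1044), Abi3 (201.9, others 88.9 to 108.7), Bin2 (244.8) and Ly86 (306.3). The same library was highest of all 59 in the endothelial and mural marker level, and the lithium count without it is given with the results.

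Among fluoxetine libraries labelled HT, P2ry13 was lowest in female 4 (231.1, others 291.2 to 302.7), Ctss was lowest in male 5 (927.7) and Cd53 was highest in female 3 (250.7). In WT fluoxetine libraries, Tgfbr1 was lowest in female 3 (765.7), and Ctss (996.7) and Itgam (421.1) were lowest in male 4. Under lithium, Trem2 was highest in HT female 5 (321.9) and Irf8 in HT male 4 (163.7), while in WT P2ry13 (336.4) and C1qc (1119) were highest in male 4, Sall1 was highest in male 1 (1295), the 1 lithium library above every vehicle library in olfactory bulb markers, and Itgam lowest in female 2 (512.6). In WT vehicle males, Inpp5d was lowest in male 3 (453.9) and Ly86 highest in male 1 (273.2).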

How the results depend on the processing

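Of 81 calls (a gene in a comparison), edgeR kept 80 and DESeq2 81, quantile normalization 78, no filter 79, a mean of at least 50 81, pseudocounts of 0.5 and 5 81 each, and a fit with no trend 78, and no direction turned under these. Leaving out 1 library gave 20 to 26 calls for fluoxetine in libraries labelled HT, 7 to 16 in WT, 5 to 12 for lithium in HT, 1 to 10 in HT females, 7 to 19 in HT males, 7 to 13 in WT females, and 0 in the other 9 comparisons. The cause of the following changes was not tested. Where libraries are left out, fewer samples also enter the fit. Fitted on the compared groups alone, lithium in HT gave 3 calls, and fluoxetine in HT females and HT males 0 each. With the bulb level as a covariate, fluoxetine gave 8 calls in HT, 0 in WT, 2 in HT females, 0 in HT males and 0 in WT females, and Sall1 in WT turned to -0.0058. With the term for the 14 libraries fluoxetine gave 0 in HT and 0 in WT. In HT it turned P2ry13 to 0.0494, Tgfbr1 to 0.00983, Siglech to 0.0131, Mertk to 0.0292, Sall1 to -0.213 and Ly86 to 0.0683. These HT values lean on WT fluoxetine females against males and are no separate estimate of the drug in HT. Without the 5 striatal-high libraries the counts were 14 for fluoxetine in HT, 1 for lithium in HT, 1 in HT females and 9 in HT males. With the endothelial level as a covariate, chosen after seeing the data, they were 13 for fluoxetine in HT, 0 for lithium in HT, 1 for lithium in WT and 7 in HT males. Without the 3 endothelial-high libraries they were 10 for fluoxetine in HT, 0 for lithium in HT, 0 in HT females and 9 in HT males. Without the bulb-high fluoxetine libraries they were 7 in HT, 0 in HT females and 1 in HT males; WT females could not be fitted so.

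Replicate numbers did not pair the samples: of 319 same-numbered pairs across groups 75 had a correlation of deviations over 0.1 (median 0.0186, against -0.00546 for other numbers). With the replicate number as a block, the counts were 25 for fluoxetine in HT, 16 in WT, 10 for lithium in HT, 6 in HT females, 18 in HT males, 12 in WT females and 0 in the others. Low genes limit precision: Gpr84 averaged 16.6 normalized counts and its SE for fluoxetine in HT was 0.20.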

Other observations

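Genes of the activated microglial state were called in both directions. Of 15 tested genes of that list 5 were higher and 2 lower under fluoxetine in libraries labelled HT, beside 14.6% of all tested genes in each direction, so that the lower count is near that of all genes: Igf1, a growth factor, rose by 0.70 (adjusted p = 0.0028), Spp1 (osteopontin) by 0.98 (adjusted p = 0.00599) and Apoe, a lipid carrier that astrocytes also make, by 0.32 (adjusted p = 0.0081), while Cd14, a lipopolysaccharide co-receptor, fell by 0.54 (adjusted p = 0.0005). In WT 4 were higher and 2 lower, beside 8.81% and 6.08% of all genes, with Igf1 at 0.83 and Spp1 at 0.98. Under lithium in libraries labelled HT 0 of the 15 were called in limma, with 5 at an unadjusted p under 0.05. Igf1, Spp1 and Apoe are made by neurons, bone-lineage cells or astrocytes as well, and the part of the bulb markers, which rose in the same libraries, was not tested. Of 10 proliferation genes 0 were called in either fluoxetine comparison in limma, with 0 at an unadjusted p under 0.05 in libraries labelled HT and 1 in WT.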
